A study of Mus musculus with 19 samples.

Results

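The 9 genes described here encode ligands, receptors, an antagonist and a target of the transforming growth factor beta (TGF-β) and activin pathways. They are Tgfb1, Tgfb2, Tgfb3, Tgfbr1, Tgfbr2, Inhba, Inhbb, Fst and Tgfbi, chosen by symbol from the 34807 genes of the count table. Each was found in the table and each passed the filter on low counts. Bulk poly(A) RNA was sequenced from 15 tumours of mouse skin, labelled squamous cell carcinoma, and from 4 normal skin samples, with 1 library each. In the tumours a tamoxifen-inducible Cre recombinase had switched on BRAF V600E, an activated kinase of the MAPK pathway, in female mice of 7 to 20 weeks per the labels. The Cre gene sat behind the promoter of Ivl, which differentiating keratinocytes use (6 tumours), or behind the Krt5 (K5, 5 tumours) or Krt14 (K14, 4 tumours) promoter, both used by basal keratinocytes. Per the study, tamoxifen was put on the shaved back in the Ivl model and its active metabolite in the K5 and K14 models. Tumours were taken at the clinical endpoint, and those of the Ivl model arose much later. Lesions of the Ivl model arose on back, paws, ears and lips per the study, and those of the K5 and K14 models on the back only. The study does not give the site of each sequenced tumour. Inducer, latency and possibly body site thus differed along with the origin, and their parts cannot be told apart from it. The 4 skin samples were labelled WT, female and of the same age range, and came from control littermates per the study. All samples share that range, so the age of each mouse at sampling is not known. It may have differed along with latency. The comparisons asked how tumours of each origin differed from normal skin and from each other. The K5 and K14 tumours together, 9 libraries, are called K5/K14 and were taken as 1 group unless given apart.

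TGF-β ligands are made as latent dimers that must be freed from a propeptide before they bind the type II receptor Tgfbr2, which then recruits and phosphorylates the type I receptor Tgfbr1. Activins are dimers of the beta subunits encoded by Inhba and Inhbb. They signal through activin receptors into the same branch of SMAD proteins, and follistatin (Fst) binds and neutralises them. In epidermis TGF-β signalling is known to restrain keratinocyte growth, while activin is known from wound repair.

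The libraries held 45715309 to 72609771 counts each. The labels do not say whether each library came from a different mouse, so the p-values below measure the spread between these libraries. The table had been adjusted by the authors for a sequencing batch. Ivl tumours 1, 2 and 3 and K5 tumour 1 carried a trace of that adjustment: in 96.6% of 13954 genes, all 9 members included, their mean level and that of the other 15 libraries were less than 0.1 apart on the log2 scale. All 4 skin libraries were outside this set, so the calls of the members and of the pathway lists are also given within the other 15 libraries. The 4 skin libraries were not alike. The summed level of 6 fibroblast markers was 322 and 141 CPM (counts scaled to library size) in skin 1 and 2, but 1490 and 2054 CPM in skin 3 and 4. The keratinocyte markers summed to 5297 to 10690 CPM in skin and 37680 to 112500 CPM in the tumours, with none of the 6 at 0.

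The upstream windows of the 3 members that passed the test in tumours are shown because the comparison with normal skin turned on these genes. Gene positions are those of GENCODE M21 on GRCm38. Tgfb1 (ENSMUSG00000002603) lies at chr7:25687002-25705077, Inhba (ENSMUSG00000041324) at chr13:16011851-16031621 and Tgfbi (ENSMUSG00000035493) at chr13:56609523-56639562, all on the plus strand. Each sequence holds the 250 bases before the RefSeq start (GRCm38.p6), 5′ to 3′ on the plus strand. Capitals mark the SMAD core motif, CAGAC on either strand.
Tgfb1, chr7:25686752-25687001: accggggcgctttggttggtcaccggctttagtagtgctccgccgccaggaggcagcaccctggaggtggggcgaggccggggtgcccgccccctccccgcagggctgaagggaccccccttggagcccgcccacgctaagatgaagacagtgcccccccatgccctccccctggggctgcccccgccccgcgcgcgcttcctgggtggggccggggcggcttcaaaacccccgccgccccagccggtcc
Inhba, chr13:16011601-16011850: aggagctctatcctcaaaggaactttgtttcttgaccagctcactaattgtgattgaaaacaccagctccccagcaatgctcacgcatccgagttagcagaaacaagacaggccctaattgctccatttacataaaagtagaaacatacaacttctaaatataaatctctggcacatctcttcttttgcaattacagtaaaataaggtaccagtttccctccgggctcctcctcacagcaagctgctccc
Tgfbi, chr13:56609336-56609585: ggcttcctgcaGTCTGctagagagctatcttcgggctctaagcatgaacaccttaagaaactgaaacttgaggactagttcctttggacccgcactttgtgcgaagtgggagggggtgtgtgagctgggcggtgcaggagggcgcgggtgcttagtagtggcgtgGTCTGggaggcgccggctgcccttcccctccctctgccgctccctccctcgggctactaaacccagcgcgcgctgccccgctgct
The windows differed in composition. GC content was 75.2% for Tgfb1, 62.4% for Tgfbi and 43.2% for Inhba, against a median of 52.4% over 32851 mouse windows of the same length. Tgfbi held 2 copies of the SMAD core, at -239 and -85 from the start, and the motif occurred in 42.2% of all windows. Neither Tgfb1 nor Inhba held it. Inhba had 1 TATA box (TATAAA on either strand, present in 12.4% of all windows), whereas Tgfb1 had 5 GC boxes (GGGCGG, present in 32.7%). Of the other members with a window, Tgfb2 held 2 copies of the SMAD core and Tgfbr2 held 1, while Tgfbr1 and Inhbb held none. The AP-1 letters TGANTCA, present in 6.75% of all windows, were found in none of the 7 members with a window. A match describes these letters only.

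In K5/K14 tumours 3 of the 9 members rose against normal skin, namely Tgfb1, Inhba and Tgfbi, and none fell (edgeR quasi-likelihood test, adjusted p under 0.05). Across all 32031 genes tested, 23.2% rose and 38.9% fell in that comparison. In Ivl tumours 1 of the 9 members rose, Inhba, and none fell, with 20.4% of all genes raised and 15.5% lowered. The members' median log2 fold change was 0.81 in K5/K14 and 0.16 in Ivl tumours, where the median over all genes was -0.60 and -0.46. No member was called between Ivl and K5/K14 tumours (2.36% of genes called) or between K5 and K14 tumours (0% called). Within the other 15 libraries the called members were again Tgfb1, Inhba and Tgfbi in K5/K14 and Inhba in Ivl tumours, with 23.9% and 22.2% of all genes raised. Scaling with RLE size factors moved the median of all genes to -0.71 and -0.59 and turned the split of all Ivl calls from 6535 raised and 4980 lowered to 5712 and 6828, but left the called members as they were. Within the other 15 libraries the Ivl split was 7101 raised and 10465 lowered. Leaving out skin 4 raised the number of members called in K5/K14 tumours from 3 to 5, by adding Tgfb3 and Inhbb.

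**Figure D1:**
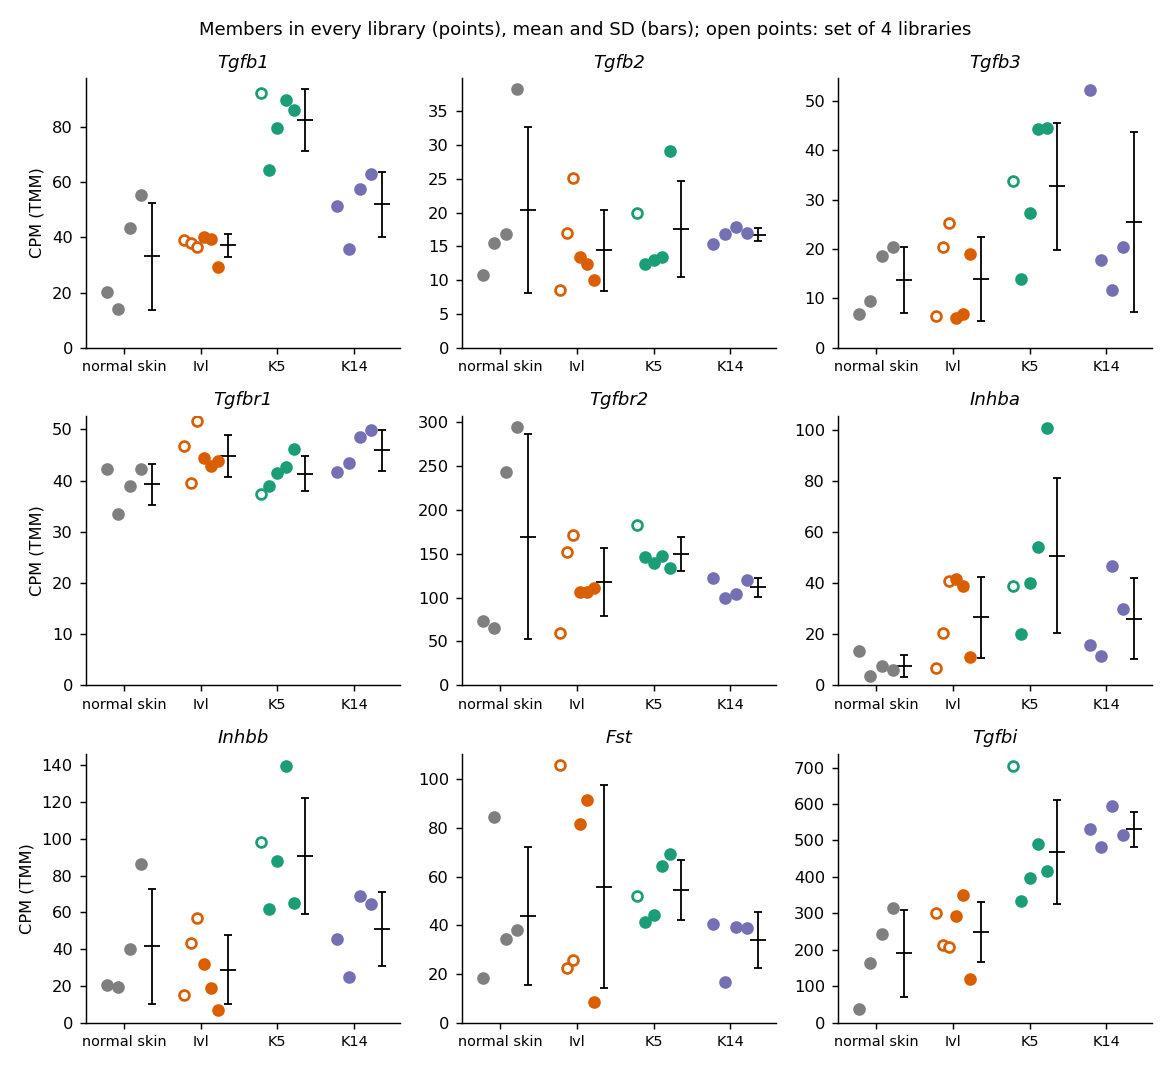
Level of each member (CPM, linear axis from 0) in every library of normal skin, Ivl, K5 and K14 tumours; points are libraries, bars the mean and SD, open points the 4 libraries that share the trace of the batch adjustment. Tgfbi in the 9 K5 and K14 tumours lay above all 4 skin libraries, and the skin libraries split widely for Tgfb1 and Tgfbr2.

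Among the TGF-β ligands, Tgfb1, the isoform with the broadest expression, was highest in K5 tumours. Its level was 92.5, 64.3, 79.7, 89.7 and 86.0 CPM in K5 tumours 1 to 5 and 51.4, 35.9, 57.5 and 63.1 CPM in K14 tumours 1 to 4. In the 6 Ivl tumours it ran from 29.2 over a median of 38.6 to 40.1 CPM, and in skin 1 to 4 it was 20.3, 13.9, 43.4 and 55.3 CPM. All 5 K5 tumours thus lay above every skin library, as 19.3% of all genes did, and above every Ivl library, as 1.71% did, while K14 tumours overlapped skin 3 and 4. Tgfb1 rose in K5/K14 tumours by 1.05 ± 0.30 log2 (SE, n = 9 against 4, edgeR adjusted p = 0.0052), a fold of 2.07. The change held within the other 15 libraries (0.99 ± 0.33, edgeR adjusted p = 0.017) and without each library in turn. Taken apart, the change was 1.31 ± 0.29 in K5 tumours (n = 5, edgeR adjusted p = 0.0014) and 0.64 ± 0.30 in K14 tumours (n = 4, edgeR adjusted p = 0.081). In Ivl tumours the log2 fold change was 0.16 ± 0.30 (n = 6, edgeR adjusted p = 0.67), with a 95% interval from -0.47 to 0.79. In bulk tissue, fewer cells of a type and less RNA per cell cannot be told apart. Skin 1 and 2, with the low Tgfb1 values, were also the libraries with low fibroblast, endothelial (45.0 and 59.1 CPM summed, against 245 and 320 CPM in skin 3 and 4) and macrophage markers (86.8 and 59.1 against 383 and 522 CPM). Their part in the result was not tested.

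Tgfb3, a ligand known from palate closure and scar-poor repair, varied more within each group. It was 33.7, 13.9, 27.2, 44.3 and 44.5 CPM in K5 tumours 1 to 5, 52.2, 17.7, 11.6 and 20.3 CPM in K14 tumours 1 to 4, and 6.80, 9.41, 18.6 and 20.3 CPM in skin 1 to 4. The 6 Ivl tumours ran from 5.97 over a median of 12.9 to 25.2 CPM. The groups overlapped, and the difference of 1.096 ± 0.49 log2 in K5/K14 tumours did not pass the test (n = 9 against 4, edgeR adjusted p = 0.057, 95% interval 0.08 to 2.11). It passed in a fit of those groups alone (adjusted p = 0.042) and without skin 4 (1.34, adjusted p = 0.047), K5 tumour 2 or K14 tumour 3. Tgfb2, best known from heart and eye development, gave no difference past the test. It ran from 8.53 to 25.1 CPM in Ivl tumours, from 12.3 to 29.2 in K5/K14 tumours and from 10.7 to 38.3 in skin, where skin 4 held the highest value. Its log2 fold change against skin was -0.50 ± 0.33 in Ivl (n = 6, edgeR adjusted p = 0.21) and -0.24 ± 0.30 in K5/K14 tumours (n = 9, edgeR adjusted p = 0.49). Antisense genes overlap exons of Tgfb2, Tgfb3 and Fst, and whether strand was used in counting is not stated. They held at most 14 counts in any library.

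Per kilobase of exon, Tgfb1 gave the largest mean share of the 3 ligands in every group. Its share was 45.4% ± 8.15 (SD, n = 4) in skin, 54.8% ± 13.7 (n = 6) in Ivl, 57.5% ± 7.09 (n = 5) in K5 and 51.2% ± 12.3 (n = 4) in K14 tumours. Tgfb2 gave 25.3% ± 6.62 in skin, 17.4% ± 3.66 in Ivl, 10.4% ± 2.77 in K5 and 14.8% ± 4.23 in K14 tumours, so that all 5 K5 tumours, at 7.00 to 14.3%, lay below the 4 skin libraries, at 17.1 to 32.6%. With the length of the longest transcript in place of all exons, the Tgfb1 share was 60.3% in skin and 65.7 to 71.8% in the tumour groups. These shares are a description of length-scaled levels, with no test.

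**Figure D2:**
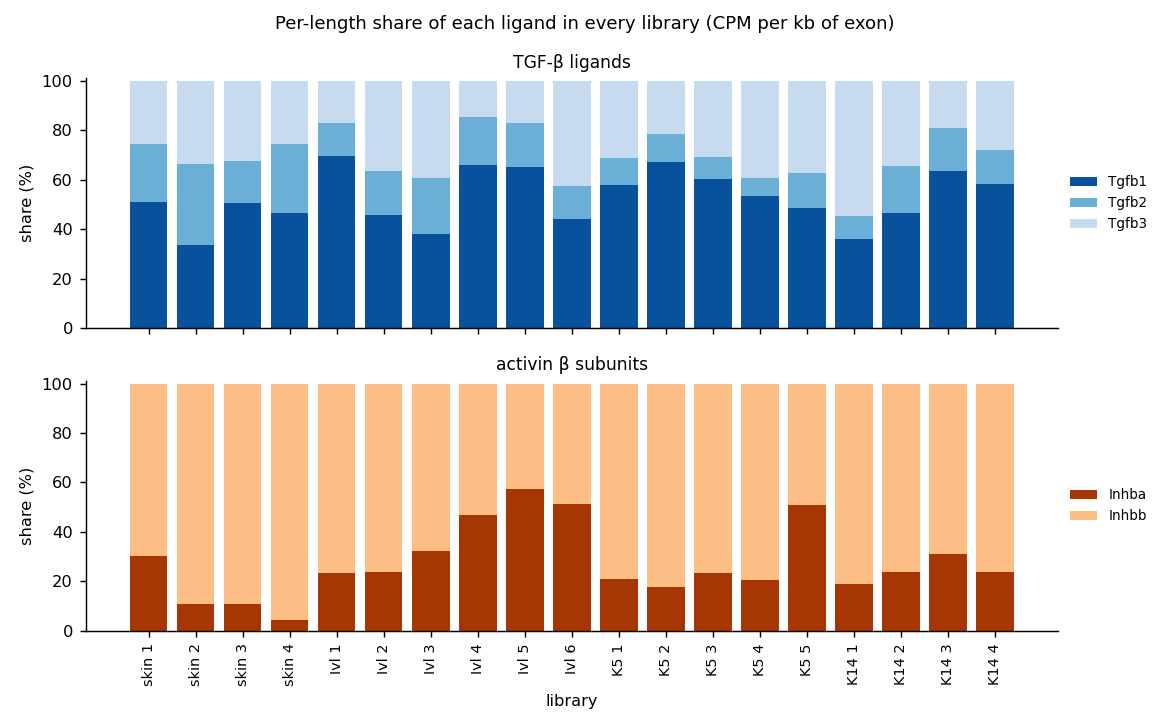
Share of each TGF-β ligand (upper panel) and each activin beta subunit (lower panel) in every library, in percent of the summed CPM per kilobase of exon; each bar is 1 library. Tgfb1 was the largest share of the TGF-β ligands in most libraries, and the Inhba share in Ivl tumours 5 and 6 and K5 tumour 5 was above 50%.

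Neither receptor passed the test in either tumour group. Tgfbr1, the type I receptor kinase, was the steadiest member, at 33.5 to 42.2 CPM in skin, 39.5 to 51.7 in Ivl and 37.4 to 49.9 CPM in K5/K14 tumours. Its log2 fold change was 0.19 ± 0.11 in Ivl (n = 6, edgeR adjusted p = 0.15, 95% interval -0.03 to 0.42) and 0.15 ± 0.10 in K5/K14 tumours (n = 9, edgeR adjusted p = 0.21, 95% interval -0.06 to 0.35). Tgfbr2, the ligand-binding type II receptor, was 73.6, 65.7, 244 and 295 CPM in skin 1 to 4. The K5 tumours, at 134 to 183 CPM, and the K14 tumours, at 99.7 to 122 CPM, lay between these extremes, and the Ivl tumours ran from 59.7, below every skin library, to 171 CPM. Among the skin libraries, 1 and 2 again held the low values. The log2 fold changes of -0.52 ± 0.35 in Ivl (n = 6, edgeR adjusted p = 0.22) and -0.35 ± 0.32 in K5/K14 tumours (n = 9, edgeR adjusted p = 0.34) did not pass the test.

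Inhba, the beta A subunit that forms activin A, was the member with the largest rise in both tumour groups. It was 39.0, 20.1, 39.9, 53.9 and 100.5 CPM in K5 tumours 1 to 5 and 15.9, 11.6, 46.8 and 30.0 CPM in K14 tumours 1 to 4. The 6 Ivl tumours ran from 6.93 over a median of 29.6 to 41.7 CPM, and skin 1 to 4 held 13.4, 3.47, 7.36 and 5.94 CPM. Ivl tumours 1 and 6 and K14 tumour 2 lay below skin 1, so the groups overlapped at their edges. The rise was 2.40 ± 0.61 log2 in K5/K14 tumours (n = 9 against 4, edgeR adjusted p = 0.0029), a fold of 5.28, and it held without each library in turn. Taken apart it was 2.75 ± 0.62 in K5 (n = 5, edgeR adjusted p = 0.0019) and 1.79 ± 0.62 in K14 tumours (n = 4, edgeR adjusted p = 0.027). In Ivl tumours it was 1.82 ± 0.61 (n = 6 against 4, edgeR adjusted p = 0.028), a fold of 3.53, and 2.02 ± 0.70 within the other 15 libraries (edgeR adjusted p = 0.026). The Ivl call was less firm. Of the Ivl tumours, leaving out number 4 (1.64, adjusted p = 0.058) or 5 (1.68, 0.055) ended it, as did leaving out skin 2 (1.56, 0.085), skin 3 (1.78, 0.063) or skin 4 (1.69, 0.069). Neutrophil markers moved with the tumour groups too: 4 of 5 (S100a8, S100a9, Cxcr2 and Ly6g) rose in each, and Csf3r was not called. Of all genes, 20.4% rose in Ivl and 23.2% in K5/K14 tumours. The sum of the 5 was 9.04 to 36.5 CPM in skin, 102 to 6575 CPM in Ivl and 1592 to 6350 CPM in K5/K14 tumours. It is a level of RNA, not split by marker, and no count of neutrophils. Ivl tumour 1, lowest in Inhba among the Ivl tumours, was also lowest in this sum, whereas Ivl tumour 6, next lowest in Inhba, was highest. Their part in the result was not tested.

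Inhbb, the beta B subunit, was 98.3, 61.8, 87.8, 139.7 and 65.0 CPM in K5 tumours 1 to 5 and 45.5, 24.9, 69.0 and 64.4 CPM in K14 tumours 1 to 4. Skin 1 to 4 held 20.7, 19.3, 39.9 and 86.5 CPM, and the Ivl tumours ran from 6.91 over a median of 25.4 to 56.9 CPM. Its order of means, K5, K14, skin and Ivl, thus differed from that of Inhba, where skin was lowest, but each neighbouring pair overlapped. The log2 fold change was 0.81 ± 0.51 in K5/K14 tumours (n = 9, edgeR adjusted p = 0.17) and -0.53 ± 0.53 in Ivl tumours (n = 6, edgeR adjusted p = 0.41), neither past the test. Per kilobase of exon, Inhba gave 14.0% ± 11.1 (SD, n = 4) of the 2 beta subunits in skin, 39.1% ± 14.6 (n = 6) in Ivl, 26.6% ± 13.6 (n = 5) in K5 and 24.3% ± 5.07 (n = 4) in K14 tumours. In the 3 Ivl tumours among the other 15 libraries it was 51.8% ± 5.46.

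Fst, the follistatin gene, passed the test in neither tumour group. It was 52.2, 41.3, 44.3, 64.5 and 69.3 CPM in K5 tumours 1 to 5, 40.5, 16.6, 39.3 and 38.9 CPM in K14 tumours 1 to 4 and 18.3, 84.3, 34.4 and 38.1 CPM in skin 1 to 4. In Ivl tumours it ran from 8.55 over a median of 53.8 to 106 CPM, the widest range of any group. Its log2 fold change was 0.35 ± 0.56 in Ivl (n = 6, edgeR adjusted p = 0.61) and 0.05 ± 0.52 in K5/K14 tumours (n = 9, edgeR adjusted p = 0.95, 95% interval -1.05 to 1.14). Set against Fst per kilobase of exon, Inhba stood at a log2 ratio of -2.97 ± 1.70 (SD, n = 4) in skin, -1.36 ± 1.67 (n = 6) in Ivl, -0.74 ± 0.57 (n = 5) in K5 and -0.97 ± 0.66 (n = 4) in K14 tumours. The ratio was above 0 in Ivl tumour 3 (0.18) and K5 tumour 5 (0.06) only, while Fst was the more abundant per length in the other 17 libraries. With the longest transcript as length, which is shorter for Fst, the ratio was below 0 in all 19 libraries (highest -0.48). Skin 1 (-0.93) lay among the tumours, and Ivl tumour 1 (-4.41) lay among the skin libraries.

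**Figure D3:**
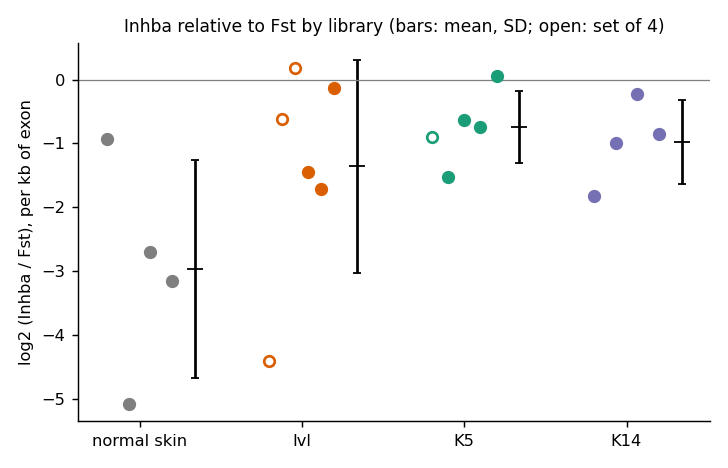
Log2 ratio of Inhba to Fst, each as CPM per kilobase of exon, in every library; points are libraries, bars the mean and SD of each group, open points the 4 libraries that share the trace of the batch adjustment. Skin ran from -5.08 to -0.93, and the K5 and K14 tumours together ran from -1.83 to 0.06.

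Tgfbi, a secreted matrix protein named for its induction by TGF-β, was the most abundant member per kilobase of exon in every group. That level was 50.4 ± 31.4 CPM per kilobase (SD, n = 4) in skin, 65.8 ± 21.9 (n = 6) in Ivl, 124 ± 37.9 (n = 5) in K5 and 141 ± 12.6 (n = 4) in K14 tumours. Unscaled, it was 705, 335, 398, 491 and 417 CPM in K5 tumours 1 to 5, 531, 483, 596 and 514 CPM in K14 tumours 1 to 4, and 38.4, 164, 244 and 314 CPM in skin 1 to 4. The 6 Ivl tumours ran from 121 over a median of 254 to 351 CPM. It was the only member whose K5/K14 values did not overlap those of skin, a property of 16.7% of all genes in the raised direction. The rise in K5/K14 tumours was 1.39 ± 0.38 log2 (n = 9 against 4, edgeR adjusted p = 0.0042), a fold of 2.61, and it was 1.31 ± 0.42 within the other 15 libraries (edgeR adjusted p = 0.013). It held without each library in turn. K5 and K14 tumours gave 1.30 ± 0.41 (n = 5, edgeR adjusted p = 0.014) and 1.48 ± 0.43 (n = 4, edgeR adjusted p = 0.011). In Ivl tumours the log2 fold change was 0.38 ± 0.38 (n = 6, edgeR adjusted p = 0.41, 95% interval -0.41 to 1.18).

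**Figure D4:**
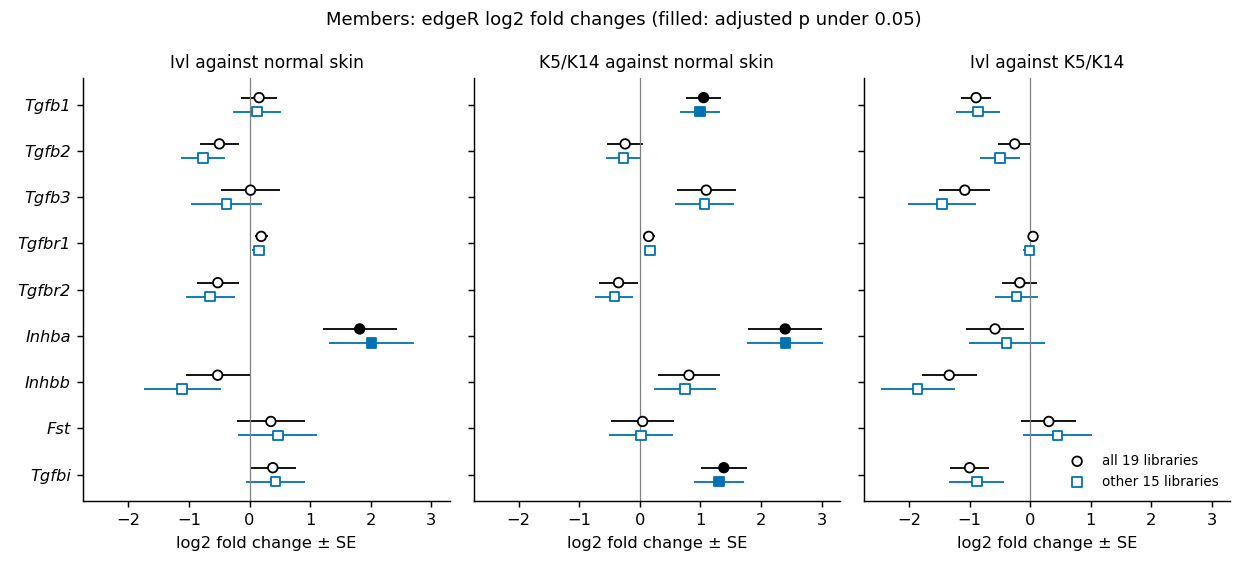
Log2 fold change and SE of the 9 members in 3 comparisons, from all 19 libraries (circles) and from the other 15 libraries (squares); filled symbols have an edgeR adjusted p under 0.05. Inhba is filled in both comparisons with skin, Tgfb1 and Tgfbi in K5/K14 tumours alone, and no member in the comparison of Ivl with K5/K14 tumours.

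A call in K5/K14 and not in Ivl tumours does not show that the tumours differed, so Ivl was compared with K5/K14 directly. Tgfb1 was lower in Ivl by 0.89 on the log2 scale, at -0.89 ± 0.25 (n = 6 against 9, edgeR adjusted p = 0.065). Tgfbi stood at -1.001 ± 0.32 (edgeR adjusted p = 0.088), Inhbb at -1.34 ± 0.45 (edgeR adjusted p = 0.11) and Tgfb3 at -1.08 ± 0.42 (edgeR adjusted p = 0.15). These 4 of 9 members had an unadjusted p under 0.05, but none passed the test over all genes. DESeq2 called Tgfb1, Inhbb and Tgfbi lower in Ivl tumours (adjusted p = 0.013, 0.028 and 0.025), with 2.36% of all genes called lower. An edgeR fit of the tumours alone called Tgfb1 and Tgfbi lower (adjusted p = 0.025 and 0.033), with 243 of 27777 genes called lower. Leaving out K14 tumour 2 (adjusted p = 0.045), skin 2 (0.036) or skin 4 (0.046) made Tgfb1 a call with edgeR, and leaving out skin 1 made Tgfbi a call (0.030). Within the other 15 libraries, where 3 Ivl tumours remain, the adjusted p was 0.39 for Tgfb1 and 0.50 for Tgfbi, and 0.41% of all genes were called. The ranges of all 9 members overlapped between Ivl and K5/K14 tumours. Of all genes, 0.312% were higher and 0.343% lower in Ivl tumours with no overlap. The Inhba difference was -0.58 ± 0.48 (edgeR adjusted p = 0.51), with a 95% interval from -1.58 to 0.42.

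K5 and K14 tumours gave no called member, with edgeR or with DESeq2. With edgeR, 0 of 32031 genes were called, with 1945 at an unadjusted p under 0.05, and DESeq2 called 173 (0.54%). Tgfb1, Tgfbr2 and Fst were higher in K5 in values that did not overlap, which 2.04% of all genes also showed in that direction. The largest unadjusted signal was Tgfb1, at 0.67 ± 0.29 log2 (n = 5 against 4, edgeR adjusted p = 0.79).

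The wider pathway was described from 50 further genes in 5 lists. In K5/K14 tumours 8 of the 50 rose and 10 fell, and in Ivl tumours 6 rose and 10 fell, with median log2 fold changes of -0.018 and -0.255. With Inhbe, at 0 in all tumours, set at the limit a count of 0 allows, these medians were 0.029 and -0.22, so the K5/K14 median has no firm sign. In K5/K14 tumours 8 rose and 14 fell within the other 15 libraries, and in Ivl tumours 6 rose and 16 fell. Over all 19 libraries, 23.2% of all genes rose and 38.9% fell in K5/K14 tumours, and 20.4% and 15.5% in Ivl tumours. Within the other 15 libraries 7647 of 31971 genes rose and 13533 fell in K5/K14 tumours, and 7101 rose and 10465 fell in Ivl tumours. In Ivl tumours the number called ran from 8 to 23 as each library was left out, and was 8 to 10 without Ivl tumour 4, 5 or 6 or skin 3 or 4. A fit of Ivl tumours and skin alone called 9 and left out Tgfbr3, Acvr2b, Ltbp3, Nrros, Gdf11, Pmepa1 and Furin. All 50 genes passed the filter on low counts, but Inhbe and Nodal did so through skin libraries alone. Their falls, counted above, are therefore tied to the filter.

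Among the 9 co-receptors and activin receptors none rose, while 5 fell in K5/K14 and 3 in Ivl tumours, and within the other 15 libraries 6 and 5 fell, with Acvrl1 added in both and Acvr2a in Ivl tumours. Acvr2b, an activin type II receptor, fell by 1.72 on the log2 scale in K5/K14 (edgeR adjusted p = 0.00012) and by 0.93 in Ivl tumours (edgeR adjusted p = 0.038). Its sister receptor Acvr2a fell by 0.81 in K5/K14 tumours (edgeR adjusted p = 0.00055) and stood at -0.37 in Ivl tumours (edgeR adjusted p = 0.12). Tgfbr3, the co-receptor betaglycan, fell by 1.93 and 1.57 (edgeR adjusted p = 0.0025 and 0.031), and Acvr1c, an activin-type receptor known from fat tissue, fell by 2.99 and 3.53 (edgeR adjusted p = 0.022 and 0.036). All 3 Ivl calls were lost without Ivl tumour 4, 5 or 6 or skin 3, with adjusted p values up to 0.11. Those of Tgfbr3 and Acvr1c were also lost without skin 4, those of Acvr2b and Acvr1c without skin 2, that of Acvr2b without skin 1 and that of Acvr1c without Ivl tumour 1. They held within the other 15 libraries, at -1.66 for Acvr2b, -2.48 for Tgfbr3 and -4.70 for Acvr1c. Without Ivl tumour 3 the Ivl values of Tgfbr3 and Acvr1c were -2.20 and -4.17. Acvr1c in K5 tumour 1, at 7.40 CPM, stood above the other 8 K5/K14 tumours, at 0.023 to 1.14 CPM, and its K5/K14 value was -4.51 without that library. K5 tumour 1 is the only K5/K14 library with the trace of the batch adjustment. Bambi, a decoy receptor that lacks a kinase domain, was 17.8 to 24.9 CPM in 5 Ivl tumours and 5.12 in Ivl tumour 1, against 1.99 to 7.60 CPM in K5/K14 tumours and 43.3, 2.74, 18.6 and 15.1 CPM in skin 1 to 4. It fell by 2.38 in K5/K14 tumours against skin (edgeR adjusted p = 0.00038; -1.66 without skin 1) and stood at -0.11 in Ivl tumours (edgeR adjusted p = 0.88). The direct difference between Ivl and K5/K14 was 2.27 ± 0.44 (edgeR adjusted p = 0.020), and 2.35 within the other 15 libraries (edgeR adjusted p = 0.070).

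Of 11 genes for SMADs and their regulators, 3 rose in each tumour group. Pmepa1, which encodes a membrane protein that holds back SMAD signalling and is induced by it, rose by 2.20 in K5/K14 and 1.28 in Ivl tumours (edgeR adjusted p = 0.00011 and 0.014). Its Ivl call was lost in the fit of Ivl tumours and skin alone (1.19, adjusted p = 0.087). Skil, the SMAD co-repressor SnoN, rose by 1.05 and 0.91 (edgeR adjusted p = 8.7e-05 and 0.00084), and Smurf1, a ubiquitin ligase for SMADs and receptors, by 1.32 and 1.03 (edgeR adjusted p = 7.7e-06 and 0.00022). None fell in Ivl tumours, and 1 fell in K5/K14 tumours, the inhibitory SMAD gene Smad6 (-0.84, edgeR adjusted p = 0.019), a call lost without skin 1 (adjusted p = 0.20). Smad6 was called lowered in Ivl tumours too within the other 15 libraries, where the list was otherwise called alike.

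Of 12 genes for latency and activation, 1 rose and 2 fell in K5/K14 tumours, and 1 rose and 3 fell in Ivl tumours. The falls numbered 3 and 4 within the other 15 libraries, Nrros being added in K5/K14 and Ltbp4 in Ivl tumours. Furin, the protease that cleaves the TGF-β propeptide, was the gene that rose, by 0.94 in K5/K14 and 0.61 in Ivl tumours (edgeR adjusted p = 0.00037 and 0.022). The Ivl call was lost without skin 1 or 2, with RLE size factors (0.48, adjusted p = 0.058), with filterByExpr (0.46, 0.072), with only Ivl tumours and skin in the fit (0.53, 0.092) and with DESeq2 (0.48, 0.054), and held within the other 15 libraries (0.67, 0.023). Ltbp3, a latent TGF-β binding protein, fell by 1.21 and 0.74 (edgeR adjusted p = 0.00049 and 0.041). Ltbp4, of the same family, fell by 0.89 in K5/K14 tumours (edgeR adjusted p = 0.0023) and stood at -0.50 in Ivl tumours (edgeR adjusted p = 0.11). Itgb8, a subunit of an integrin that frees TGF-β, fell by 1.30 in Ivl tumours (edgeR adjusted p = 0.036) and stood at -0.61 in K5/K14 tumours (edgeR adjusted p = 0.22). The Ivl calls of both Ltbp3 and Itgb8 were lost without Ivl tumour 4, 5 or 6 or skin 2, 3 or 4, that of Ltbp3 also without skin 1 and that of Itgb8 without Ivl tumour 1.

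Among 6 other ligands and antagonists, 2 rose and 2 fell in K5/K14 tumours, and 0 rose and 3 fell in Ivl tumours. The falls include Inhbe in both groups and Nodal in Ivl tumours. These 2 genes passed the filter only through skin, where they were highest, so their falls carry no weight in the counts. Within the other 15 libraries 3 fell in K5/K14 and 4 in Ivl tumours, with Gdf11 and Mstn added respectively. Fstl3, a follistatin-like antagonist of activin, rose by 0.75 in K5/K14 tumours (edgeR adjusted p = 0.0098) and stood at 0.37 in Ivl tumours (edgeR adjusted p = 0.21). Of its exon length, 47.3% is overlapped by an antisense gene with at most 15 counts. Gdf11, a ligand related to myostatin, fell by 0.91 in Ivl tumours (edgeR adjusted p = 0.026), a call lost without Ivl tumour 5 or 6 or skin 4, and stood at -0.65 in K5/K14 tumours (edgeR adjusted p = 0.050). Mstn, myostatin, a muscle-derived ligand, was 14.9 to 87.6 CPM in skin and at most 0.36 CPM in K5/K14 tumours, and fell by 8.62 there (edgeR adjusted p = 0.00010). It was 15.4, 51.9 and 5.87 CPM in Ivl tumours 2, 3 and 6 and at most 0.16 CPM in the other 3, and differed between Ivl and K5/K14 by 6.73 ± 1.33 (edgeR adjusted p = 0.024), a call lost without K5 tumour 3 (adjusted p = 0.051), within the other 15 libraries (4.32, 0.12) and with the set of 4 as a covariate (4.89, 0.086). Without Ivl tumour 3 the difference was 5.23 (adjusted p = 0.044). Mstn had 1 to 18 counts in each K5/K14 library and 0 in Ivl tumour 1, so counting limits these fold changes. Skeletal muscle markers moved with it: the same 3 Ivl tumours held sums of 3622, 1094 and 340 CPM over 5 markers, and the other 3 held at most 6.57 CPM. Ivl tumours 2 and 3 carry the trace of the batch adjustment, and Ivl tumour 6 does not. In tumours 2 and 3 the tumour and the adjustment cannot be told apart. All 5 markers fell in K5/K14 tumours, as did 38.9% of all genes. Inhbe, another inhibin beta subunit gene, had 4 to 5 counts in each skin library and 0 in all 15 tumours. It was called in both groups with edgeR and in neither with DESeq2, and since a count of 0 allows up to 3 counts per library, no fold is given. Nodal, a ligand of early embryos, had 1 to 11 counts per skin library and 1 count in all 6 Ivl tumours together. Because Nodal passed the filter through skin alone, no ratio is given. Its Ivl call was lost without Ivl tumour 1, 4, 5 or 6 or skin 2, with the set of 4 as a covariate and with DESeq2. With Inhbe set at that limit, the median of this list was -0.41 in Ivl and -0.15 in K5/K14 tumours, in place of -1.40 and -0.86.

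Of 12 transcriptional targets, 2 rose and none fell in K5/K14 tumours, and the same 2 rose and 1 fell in Ivl tumours. The CDK inhibitor genes Cdkn1a and Cdkn2b rose by 1.43 and 1.66 in K5/K14 (edgeR adjusted p = 2.2e-06 and 1.1e-05) and by 1.18 and 1.24 in Ivl tumours (edgeR adjusted p = 3.3e-05 and 0.00040). All 4 calls held without each library in turn. The matrix targets Col1a1, Col1a2, Col3a1, Fn1, Postn and Lox and the muscle-type targets Acta2 and Tagln did not pass the test in either group over all 19 libraries, but some of these results were unstable. Col1a1 stood at -1.68 in Ivl tumours (edgeR adjusted p = 0.063) and was called lowered within the other 15 libraries (-3.01, adjusted p = 0.0046), with RLE size factors (0.043), filterByExpr (0.039), the set of 4 as a covariate (0.0045) and DESeq2 (0.022), and without skin 2 or Ivl tumour 3. Without Ivl tumour 3, Col1a2 and Col3a1 were called lowered there too. Postn stood at 1.32 in K5/K14 tumours (edgeR adjusted p = 0.060) and was called raised with DESeq2 (1.21, 0.042) and without K14 tumour 3 or skin 4, and without skin 4 in Ivl tumours as well. Tagln was called raised in K5/K14 tumours without K5 tumour 2. An antisense gene with up to 151 counts overlaps 62.4% of Tagln's exon length, and Tagln itself had 27 to 127 counts per library, so its values are uncertain. Tgfb1i1 fell by 1.49 in Ivl tumours (edgeR adjusted p = 0.015), a call lost without skin 4 (adjusted p = 0.055), and within the other 15 libraries it fell in K5/K14 tumours too. Of 6 fibroblast markers, 0 were called in Ivl and 1 fell in K5/K14 tumours (Dcn), where 15.5% and 38.9% of all genes fell. In Ivl tumours 3 fell within the other 15 libraries (Pdgfra, Pdgfrb and Dpt), in K5/K14 tumours 2 did, and with DESeq2 2 fell in each. Within the other 15 libraries 10465 and 13533 of 31971 genes fell in Ivl and K5/K14 tumours. These markers summed to 138 to 1312 CPM in Ivl, 290 to 760 CPM in K5/K14 tumours and 141 to 2054 CPM in skin. Their part in the result was not tested.

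**Figure D5:**
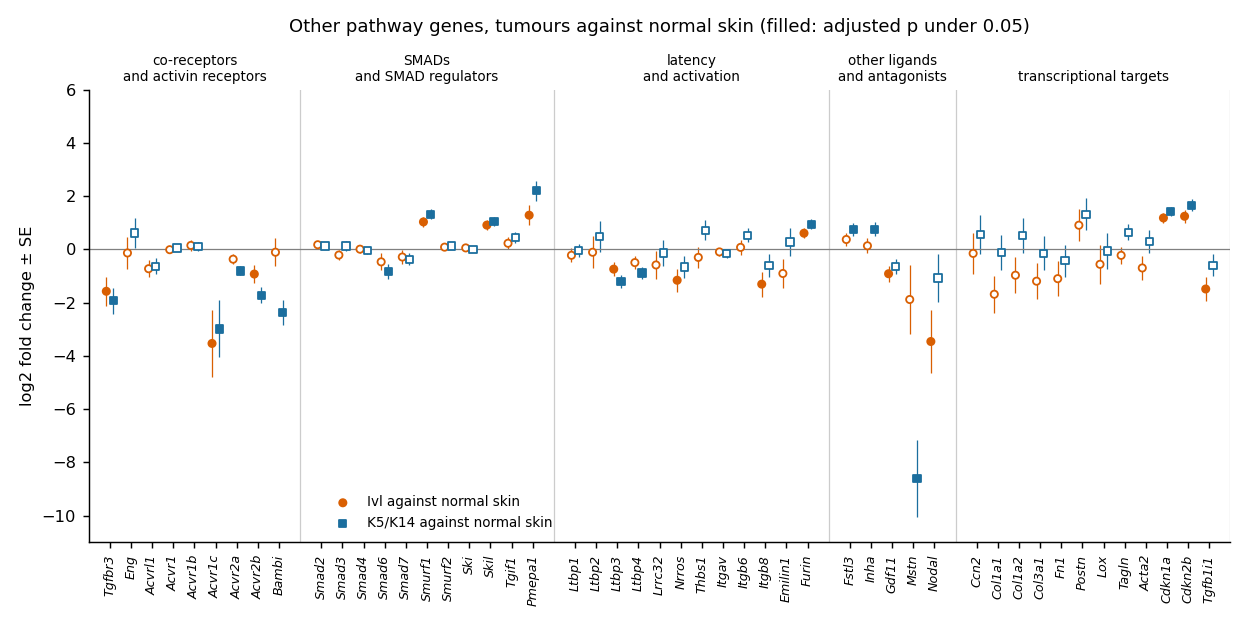
Log2 fold change and SE of 49 further pathway genes against normal skin, in Ivl (circles) and K5/K14 tumours (squares), grouped by role; filled symbols have an edgeR adjusted p under 0.05, and Inhbe, at 0 in all tumours, is not drawn. Pmepa1, Skil, Smurf1, Furin, Cdkn1a and Cdkn2b are filled above 0 in both tumour groups, and no co-receptor or activin receptor is filled above 0.

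The genes whose levels over the 19 libraries were most like those of Inhba, by the mean absolute difference of z-scored log2 CPM among 13756 genes, were Fblim1 (0.284), Phlda1 (0.292) and Cdk17 (0.293). Fblim1 had a mean of 11.2 CPM in skin, 32.3 in Ivl, 67.4 in K5 and 42.3 CPM in K14 tumours. For Tgfbi they were Manba (0.258), Wdr91 (0.324) and Galns (0.328), of which Manba and Galns encode lysosomal enzymes. The 19 points share libraries, depth and the batch adjustment.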

How the data were processed

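Poly(A) libraries of 15 tumours and 4 skin samples were made with a strand-specific kit. Per the labels and the study's methods, the authors ran FastQC 0.11.8, trimmed with TrimGalore, aligned to GRCm38 (Ensembl annotation) with HISAT2 2.1.0, counted with featureCounts of Subread 1.6.3 and ran ComBat-seq on the table to remove a sequencing batch. The deposited values are therefore estimated counts, whole numbers not scaled for library size, and errors leave out any error of that adjustment. Plain counts had been assumed in the design, and the same test was kept. The labels do not name the batch. The set of 4 libraries was known from an earlier examination of these data.

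The 9 members and all lists were chosen with earlier results of these data known. Identifiers were matched to GENCODE M21 (34694 of 34807, 113 unmatched); Inhbc was not analysed here, and 1 gene of the target list is not reported here. A gene was tested if any library held 5 or more of its counts (32031 genes). TMM scaling and the test came from edgeR 4.0.16 under R 4.3.3 (quasi-likelihood F test, robust, two-sided, all 19 libraries in the fit), adjusted by Benjamini-Hochberg over all genes tested. Each SE was worked out from the F statistic and its fold change, and 95% intervals use the t distribution of the fit. The test was checked on simulated data. No pair of the 37 within groups agreed within sampling noise (lowest chi-square per degree of freedom 19.8). Levels between genes were compared per kilobase of exon. Promoter windows are from RefSeq (7 of 9 members matched).

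Of each further list, the text names the 3 genes with the smallest adjusted p in each comparison with skin, every gene called between tumour groups and, for Inhba and Tgfbi, the 3 nearest profiles; Smad6 and the matrix and muscle-type targets were named after their values were seen. Alternatives were DESeq2 1.42.0, RLE size factors, other filters, the other 15 libraries, a covariate for the set of 4, the replicate number as a block, only the groups compared, and leaving out each library.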

Additional observations from a re-analysis of the deposited data

Results flagged for a closer look

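In 45 groups of members and libraries, 5 values stood far from the rest of their group, with K5 tumour 5 flagged for both Tgfb2 and Inhba. Chance alone flags about 1 in 20 separate groups. These groups overlap, since K5/K14 holds K5 and K14, so the number flagged cannot be set against that rate. Tgfb1 in Ivl tumour 6 was 29.2 CPM, below the other 5 Ivl tumours at 36.5 to 40.1 CPM. Tgfb2 in K5 tumour 5 was 29.2 CPM, above the other 8 K5/K14 tumours. Tgfbr2 in K5 tumour 1 was 183 CPM, above the other 4 K5 tumours at 134 to 147 CPM. K5 tumour 1 is the only K5 tumour that carries the trace of the batch adjustment, so tumour and adjustment cannot be told apart there. Inhba in K5 tumour 5 was 100.5 CPM, above the other 8 K5/K14 tumours, and Fst in K14 tumour 2 was 16.6 CPM, below the other 3 K14 tumours at 38.9 to 40.5 CPM. Bambi and Mstn changed differently against skin in Ivl and in K5/K14 tumours, by 2.27 and 6.73 on the log2 scale in the direct comparison (edgeR adjusted p = 0.020 and 0.024).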

How the results depend on the processing

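Calls of Tgfb1, Inhba and Tgfbi in K5/K14 tumours kept their direction and passed the test under every alternative run, and Inhba in Ivl tumours did so except where 1 of 5 libraries was left out. In Ivl against K5/K14 tumours, 0 members were called, but 2 in a fit of those groups alone and 3 with DESeq2. Of all genes, 564 of 27777 were called in the fit of those groups alone and 2133 of 32031 with DESeq2. Further pathway genes called in Ivl tumours against skin fell from 16 to 6 with the replicate block, all raised, and to 9 with only the groups compared. Against K5/K14 they were 2, but 1 within the other 15 libraries, 0 with the replicate block and 7 with DESeq2. Of all genes, 17566 were called in Ivl tumours against skin within the other 15 libraries. In Ivl against K5/K14 tumours 756 genes were called, but 131 within the other 15 libraries, 449 with the set of 4 as a covariate, 46 with the replicate block and 2133 with DESeq2. Between K5 and K14 tumours the count was 17 within the other 15 libraries, 2 with only the groups compared and 173 with DESeq2. With 1 library left out, counts ran as follows: members 0 to 1 (Ivl against skin), 3 to 5 (K5/K14 against skin) and 0 to 1 (Ivl against K5/K14); further pathway genes 8 to 23 and 17 to 20 against skin and 1 to 3 between Ivl and K5/K14; all genes 9165 to 14757, 17638 to 20469 and 127 to 1328. The lowest of these, 127, came without K5 tumour 1 and the highest, 1328, without K14 tumour 1. The cause was not tested.

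Values near 0 changed sign. Against skin, Tgfb3 in Ivl tumours went from 0.02 to -0.11 (RLE, DESeq2), -0.15 (filterByExpr), -0.38 (other 15 libraries), -0.29 (set of 4 as a covariate), -0.046 (replicate block) and -0.068 (only the groups compared), and Tgfb1 to -0.00012 (filterByExpr). Fst in K5/K14 tumours went from 0.05 to -0.067 (RLE, DESeq2), -0.081 (filterByExpr) and -0.13 (replicate block). Between Ivl and K5/K14 tumours Tgfbr1 went to -0.015 (other 15 libraries), and between K5 and K14 tumours Tgfb2 went to -0.011 (set of 4 as a covariate) and -0.017 (replicate block). With 1 library left out, sign changes arose in Ivl tumours for Tgfb1 (-0.10 to 0.51), Tgfb3 (-0.25 to 0.25) and Inhbb (-0.84 to 0.11), in K5/K14 tumours for Tgfb2 (-0.45 to 0.25), Tgfbr2 (-0.62 to 0.054) and Fst (-0.22 to 0.57), between Ivl and K5/K14 tumours for Tgfbr1 (-0.0088 to 0.081) and between K5 and K14 tumours for Tgfb2 (-0.19 to 0.17). With the longest transcript as length, the Tgfb1 share was 68.6% in Ivl, 71.8% in K5, 65.7% in K14 tumours and 60.3% in skin, and the log2 ratio of Inhba to Fst in K5 tumours was -1.40 in place of -0.74, an alternative chosen after seeing the data.

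Replicate numbers were checked for pairing. Of 25 same-numbered pairs, 9 correlated above 0.1 in their deviations from the group means (range -0.33 to 0.21). Pairs with different numbers were not examined, so this check cannot decide whether the libraries were paired. With the replicate block Inhbb became a call in K5/K14 tumours (1.04, adjusted p = 0.048), and no other member's call changed. All 9 members had at least 293 counts in every library, so counting depth limits the values of Inhbe, Nodal, Acvr1c and Mstn and not those of the members.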

Other observations

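Other cell type markers, summed per list, varied beside the members. In K5/K14 tumours 3 of 5 adipocyte, 3 of 5 T cell, 2 of 6 hair follicle and 1 of 5 endothelial markers fell, no macrophage or melanocyte marker was called, and 6 of 6 keratinocyte markers rose (edgeR adjusted p under 0.05, all 19 libraries). Of all genes, 38.9% fell and 23.2% rose there. Within the other 15 libraries 3 of 5 macrophage and 4 of 4 melanocyte markers fell in K5/K14 tumours, as did 3 and 2 with DESeq2. Of all 31971 genes in the fit of 15 libraries, 13533 fell in K5/K14 and 10465 in Ivl tumours. With DESeq2 11579 and 5668 of 32031 genes fell. In Ivl tumours 5 of 6 keratinocyte markers rose and 1 of 4 melanocyte markers fell, while none of the endothelial, macrophage, T cell, hair follicle, skeletal muscle or adipocyte markers was called. Of all genes, 20.4% rose and 15.5% fell in Ivl tumours. Within the other 15 libraries the Ivl counts were 3 of 4 melanocyte, 2 of 5 adipocyte (1 other rose) and 1 each of the endothelial, macrophage, T cell, hair follicle and skeletal muscle markers lowered, and DESeq2 called Tek, Cd3e and 4 of 4 melanocyte markers lowered and Fabp4 raised. Hair follicle markers summed to 33.4 to 2401 CPM in skin, 2.83 to 1384 CPM in Ivl tumours and 0.985 to 2.29 CPM in K5 tumours, where Shh was at 0 in every library. Adipocyte markers summed to 1648, 1698 and 3480 CPM in Ivl tumours 1, 4 and 5, the 3 Ivl tumours with Fst above 80 CPM, and to 78.4 to 384 CPM in the other 3, where Fst was 8.55 to 25.9 CPM. This was noticed after the values were seen and was not tested. The sums are not split by marker and are no measure of fat content. In the Ivl tumours of the other 15 libraries Fabp4 rose against skin, while Cfd and Lep fell. The median log2 fold change of the 5 markers there was -4.8. Ly6g, a neutrophil marker, was at 0 in all 4 skin libraries.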
